A study of Mus musculus with 10 samples.

Results

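AMPA receptors are the ion channels that carry most fast excitatory transmission between neurons. Each channel is an assembly of pore subunits encoded by Gria1, Gria2, Gria3 and Gria4, and auxiliary proteins bound to the pore set its trafficking and gating. Channels that contain an edited GluA2 subunit, the product of Gria2, pass little calcium, and several classes of interneuron are known for calcium-permeable channels. Among the auxiliary proteins, Cacng2 (stargazin), Cacng3 and Cacng8 encode transmembrane AMPA receptor regulatory proteins, and Shisa6 encodes a membrane protein that slows desensitisation of the channel. These 8 genes were taken by name from the 23589 gene rows of the count table, and all 8 were present.

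DroNc-seq, a method that pairs single nuclei with barcoded beads in droplets, was applied to archived frozen brain of C57BL/6 mice. No treatment or mutation is named in the labels, and 4 mice and 2 regions are named in the design. The groups are hippocampus (5 libraries, 5658 nuclei) and cortex, dissected as prefrontal cortex (5 libraries, 5966 nuclei). Titles are numbered 0 to 3 for each region. Number 0 has a pair of libraries, which were added together, leaving 4 units in each region. No label says which mouse a number stands for, so a p-value reflects how far these units vary, and that variation may be technical.

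The promoter windows of Gria2 and Gria4 are shown because the Gria2 share of the pore transcripts was within 1 percentage point between regions in excitatory and in all nuclei, though not in inhibitory ones, while Gria4 was the pore gene that differed most between neuron classes of hippocampus. Gria2 lies on chromosome 3 at 80681450 to 80802835, minus strand, and Gria4 on chromosome 9 at 4417896 to 4796234, minus strand (GRCm38, GENCODE). The RefSeq windows of the same assembly run 5′ to 3′ from 250 bases before to 50 bases after the start of each gene, and capitals mark every CG dinucleotide.
Gria2 (chr3:80802786-80803085, minus strand): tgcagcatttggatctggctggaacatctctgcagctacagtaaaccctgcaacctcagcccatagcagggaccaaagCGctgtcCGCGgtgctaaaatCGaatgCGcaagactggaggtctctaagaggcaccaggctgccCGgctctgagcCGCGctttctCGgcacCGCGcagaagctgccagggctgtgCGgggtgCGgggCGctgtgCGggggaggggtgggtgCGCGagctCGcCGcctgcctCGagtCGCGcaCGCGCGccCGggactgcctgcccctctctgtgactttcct
Gria4 (chr9:4796185-4796484, minus strand): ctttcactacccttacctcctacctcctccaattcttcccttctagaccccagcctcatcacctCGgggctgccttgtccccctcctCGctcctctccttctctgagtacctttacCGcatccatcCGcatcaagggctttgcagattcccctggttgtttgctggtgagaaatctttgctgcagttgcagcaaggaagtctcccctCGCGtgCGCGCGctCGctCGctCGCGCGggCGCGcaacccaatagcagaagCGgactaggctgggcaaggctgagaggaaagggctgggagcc
The Gria2 window held 26 CG dinucleotides, a number reached by 16.9% of the 32851 RefSeq promoters. The Gria4 window held 17, reached by 31.4%. The median was 7. The letters TATAAA were in neither window on either strand, and 13.6% of promoters held them. Sequences were found for 5 of the 8 genes.

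The other genes lie at chr11:57011387-57330244 (Gria1, plus strand), chrX:41400854-41678601 (Gria3, plus), chr11:66211725-66525964 (Shisa6, minus), chr15:77991748-78120028 (Cacng2, minus), chr7:122670492-122769393 (Cacng3, plus) and chr7:3390683-3415648 (Cacng8, plus). All 8 are protein coding, and every count is of the whole gene. Shisa6, Cacng2, Cacng3 and Cacng8 each overlap an annotated gene on the opposite strand, and Gria2, Gria3, Gria4 and Cacng8 each overlap 1 on their own strand. The sources used here do not say whether counting used strand, and reads shared with an overlapping gene could be split, so the values of these 7 genes are uncertain to that extent.

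Libraries held 1443244 to 2600788 UMIs (unique molecular identifiers, one per captured transcript), and any pair of libraries shared at most 3 barcodes. Nuclei were grouped by clustering without the AMPA receptor genes, and classes were named from marker genes. Hippocampal unit 0 stood apart: 116 of its 844 excitatory nuclei were cortical layer 2-4-like, against 2 to 12 in the other hippocampal units, and 950 of its 2374 nuclei stayed unnamed. Values without it are given where it moves a result. Excitatory nuclei came mostly from different clusters in the 2 regions. The largest were a dentate granule-like cluster led by C1ql2, Dsp and Prox1 in hippocampus (1184 nuclei) and a layer 2-4-like cluster in cortex (893 nuclei). Mostly cortical clusters also held hippocampal nuclei, such as 268 beside 677 cortical ones and 129 beside 626. Each hippocampal unit held 14 to 27 layer 5-like and 8 to 26 layer 6-like nuclei. Oligodendrocyte markers also moved with region: their summed level in excitatory nuclei was 423 to 503 CPM (UMIs per 1000000 UMIs of the unit and class) in hippocampal units and 201 to 230 CPM in cortical units, with 10 of 10 markers higher and none at 0. Their part in the results below was not tested.

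In excitatory neuron-like nuclei all 8 genes differed between the regions. Gria1, Gria2, Shisa6 and Cacng8 were higher in hippocampus, and Gria3, Gria4, Cacng2 and Cacng3 were lower (edgeR quasi-likelihood test, Benjamini-Hochberg adjusted p under 0.05). Of the 10964 genes tested in this class 16.3% passed in either direction, 8.68% higher and 7.62% lower. Shisa6 entered the test only through hippocampal units, where it was high, so its call adds nothing to that comparison. With hippocampal unit 0 left out, all 8 still passed in the same directions. With dentate granule-like nuclei left out, an alternative added after the data were seen, 4 passed, namely Gria1, Gria2, Shisa6 and Cacng8. Gria3, Gria4, Cacng2 and Cacng3 kept their direction without a call. Hippocampal unit 0 then held 559 excitatory nuclei, against 246 to 265 in the other hippocampal units. With only dentate granule-, CA1- and CA3-like nuclei of hippocampus kept, likewise added after the data were seen, all 8 passed in the same directions. A lower level in a summed class cannot tell fewer nuclei of a subtype from less RNA per nucleus.

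Gria1 encodes GluA1, the subunit trafficked to synapses during hippocampal long-term potentiation. Its level in excitatory nuclei was 1273, 1858, 1971 and 1866 CPM in hippocampal units 0 to 3, against 467, 549, 507 and 513 CPM in cortical units 0 to 3. Every hippocampal unit lay above every cortical one, although unit 0 was well below the other 3. The log2 fold change was 1.80 ± 0.13 (SE, n = 4 units per region, edgeR adjusted p = 1.07e-06), and 1.94 without hippocampal unit 0.

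Gria2, whose product limits calcium entry, was 3447, 3792, 3888 and 3933 CPM in hippocampal excitatory nuclei, against 2836, 2989, 2987 and 2892 CPM in cortical ones. The groups did not overlap, with a log2 fold change of 0.39 ± 0.07 (edgeR adjusted p = 0.00245). In all nuclei together the groups overlapped, with 2810 ± 206 CPM in hippocampus and 2671 ± 65.6 CPM in cortex (SD, n = 4 each), and the gene did not pass (0.06 ± 0.08, edgeR adjusted p = 0.635). It did pass there with numbers 1 to 3 alone (0.11, edgeR adjusted p = 0.018).

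Gria3, an X-linked pore subunit gene, was lower in hippocampus. Excitatory nuclei held 1029, 940, 918 and 872 CPM in hippocampal units and 1215, 1339, 1329 and 1294 CPM in cortical units, with no overlap. The log2 fold change was -0.44 ± 0.08 (edgeR adjusted p = 0.00217).

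Gria4 encodes GluA4, a subunit known for fast-decaying currents and for interneuron expression. Hippocampal excitatory nuclei held 255, 105, 57.8 and 67.0 CPM, against 402, 335, 338 and 328 CPM in cortical ones. The groups did not overlap, and hippocampal unit 0, the one with most layer 2-4-like nuclei, was nearest to cortex. The log2 fold change of -1.46 ± 0.32 (edgeR adjusted p = 0.0075) became -2.16 without that unit. It was -2.57 when only dentate granule-, CA1- and CA3-like nuclei of hippocampus were kept, also an alternative added after the data were seen.

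Of the auxiliary genes, Shisa6 differed most. In excitatory nuclei it had 49, 54, 45 and 49 UMIs in hippocampal units (31.2, 67.4, 59.1 and 53.8 CPM), against 5, 3, 2 and 2 UMIs in cortical units (1.99, 2.01, 1.36 and 1.40 CPM). The groups were far apart, and the cortical values rest on 12 UMIs in all. At these cortical levels Shisa6 passed the low-count filter only through the hippocampal units, where it was high. The log2 fold change was 4.85 ± 0.35 (edgeR adjusted p = 1.06e-06).

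Cacng8, the regulatory protein gene known for its hippocampal expression, had 24.2, 26.2, 21.0 and 18.7 CPM in hippocampal excitatory nuclei, against 8.74, 8.69, 6.14 and 5.59 CPM in cortical ones. The groups did not overlap (1.61 ± 0.25 on the log2 scale, edgeR adjusted p = 0.000663). Counts behind these levels were low, with 16 to 38 UMIs per hippocampal unit and 8 to 22 per cortical unit.

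Cacng2, which encodes stargazin, had 86.6, 46.2, 52.5 and 59.3 CPM in hippocampal excitatory nuclei, against 94.2, 84.2, 98.9 and 112 CPM in cortical ones. Hippocampal unit 0 overlapped the cortical units (log2 fold change -0.61 ± 0.18, edgeR adjusted p = 0.0323). The call was lost without hippocampal unit 1, 2 or 3 or cortical unit 2 or 3, with values between -0.61 and -0.51 and adjusted p of 0.0699 to 0.106. It was also lost at cluster resolution 1.0 (-0.52, adjusted p = 0.087) and 4.0 (-0.54, adjusted p = 0.0708). Without hippocampal unit 0 the value was -0.83 (adjusted p = 0.00138).

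Cacng3 had 146, 77.4, 64.4 and 71.4 CPM in hippocampal excitatory nuclei, against 186, 146, 131 and 155 CPM in cortical ones. Unit 0 of hippocampus again lay within the cortical range while the other 3 lay below it (-0.73 ± 0.22, edgeR adjusted p = 0.0335). Leaving out hippocampal unit 1, 2 or 3 or cortical unit 0, 1 or 3 took away the call, with values between -0.76 and -0.60 and adjusted p of 0.0556 to 0.112. Without hippocampal unit 0 the value was -1.09 (adjusted p = 0.000112).

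**Figure D1:**
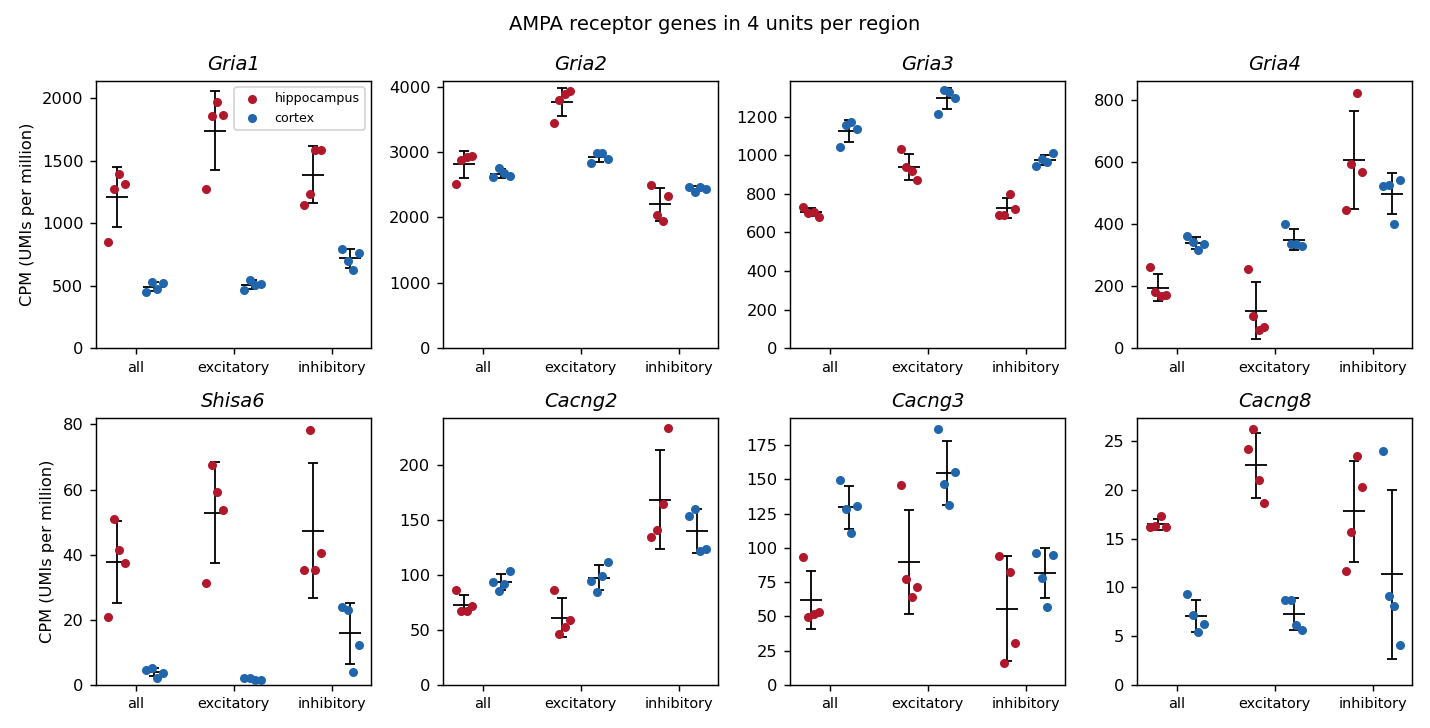
Level of each gene in CPM (linear axes from 0) in all, excitatory neuron-like and inhibitory neuron-like nuclei; points are units, red for hippocampus and blue for cortex, and bars are the mean ± SD over 4 units. In excitatory nuclei the hippocampal points lie above the cortical ones for Gria1, Gria2, Shisa6 and Cacng8 and below them for Gria3 and Gria4.

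Over all nuclei 7 of the 8 genes passed, against 17.7% of the 12855 genes tested (9.19% higher, 8.53% lower). Gria1 (1.29 ± 0.14), Shisa6 (3.19 ± 0.33) and Cacng8 (1.17 ± 0.22) were higher in hippocampus, and Gria3 (-0.69 ± 0.07), Gria4 (-0.80 ± 0.13), Cacng2 (-0.35 ± 0.11) and Cacng3 (-1.05 ± 0.18) were lower. The Cacng2 call, at an adjusted p of 0.0465 in edgeR, was lost without any one of hippocampal units 1, 2 and 3 and cortical units 1, 2 and 3 (-0.39 to -0.30, adjusted p of 0.0606 to 0.129). It was also lost in DESeq2 (adjusted p = 0.0786), in nuclei above the common UMI floor (0.0595) and with doublets removed (0.0804). Excitatory nuclei made up 46.5% ± 7.40 of nuclei in hippocampal units and 68.1% ± 4.42 in cortical units (SD, n = 4 each), so these values mix level and makeup.

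In inhibitory neuron-like nuclei, with 40 to 58 nuclei per hippocampal unit and 135 to 156 per cortical unit, only Gria1 of the 6 genes tested passed. Across 4742 genes 0.211% passed, 0.0633% higher and 0.148% lower. Gria1 was 1148, 1236, 1587 and 1584 CPM in hippocampal inhibitory nuclei, against 794, 700, 625 and 759 CPM in cortical ones. The groups did not overlap (0.97 ± 0.15, edgeR adjusted p = 0.000645). Pooled Gria1 was also higher in hippocampus in microglia-like nuclei, at 936 CPM against 446 CPM in cortex. How much of the inhibitory level came from RNA of other nuclei was not tested. At the coarser cluster resolution of 1.0 the Gria1 fold change in inhibitory nuclei was 0.23 and its call was lost (adjusted p = 0.433). Gria3 passed there (-0.56, adjusted p = 0.00485). The class then held 92, 132, 143 and 172 nuclei in hippocampal units, but only 138 to 159 in cortical units. An unnamed cluster led by Glra1 and Tfap2b, with 342 hippocampal nuclei at 448 CPM of Gria1, lay outside the class at resolution 2.0. Whether it joined the class at 1.0 was not tested.

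At resolution 2.0 the other genes did not pass between the inhibitory classes. Gria3 was at 725 ± 51.8 CPM in hippocampal units and 975 ± 27.6 CPM in cortical units (SD, n = 4 each), with no overlap but an edgeR adjusted p of 0.37. Gria4 was at 608 ± 158 CPM in hippocampal units and 499 ± 65.2 CPM in cortical units, and the groups overlapped (0.29 ± 0.18, edgeR adjusted p = 0.748). Gria2 (-0.11 ± 0.13), Cacng2 (0.28 ± 0.26) and Cacng3 (-0.37 ± 0.37) also overlapped between regions. Shisa6 and Cacng8 were too low to enter the test, with 18 and 7 UMIs in hippocampal and 19 and 15 UMIs in cortical inhibitory nuclei.

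**Figure D2:**
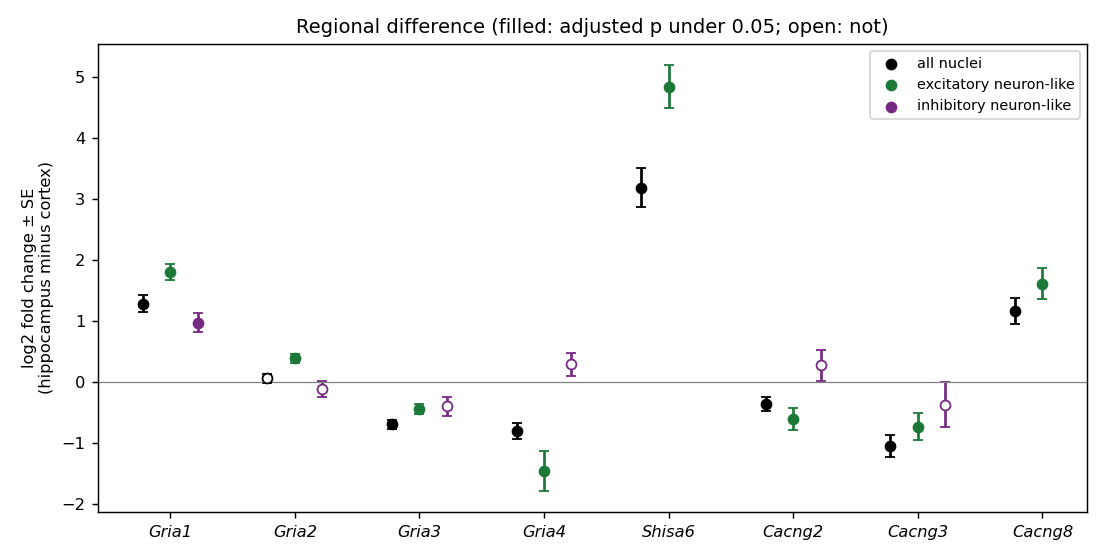
Log2 fold change, hippocampus minus cortex, with its standard error, for the 8 genes in all nuclei (black), excitatory neuron-like nuclei (green) and inhibitory neuron-like nuclei (purple). Filled points passed an adjusted p of 0.05 in edgeR; Shisa6 and Cacng8 were not tested in inhibitory nuclei, where Gria1 alone is filled.

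The makeup of the pore transcripts was then compared as the share of each Gria gene in the UMIs of Gria1 to Gria4. Transcripts differ in length, so a share is read across regions and not between genes. Gria1 made up 26.4% ± 3.49 of the sum in hippocampal excitatory nuclei and 10.01% ± 0.456 in cortical ones (SD, n = 4 each). Gria2 made up 57.3% ± 0.77 in hippocampal and 57.6% ± 0.226 in cortical excitatory nuclei. The share of Gria2 was thus within 1 percentage point between regions in this class, at -0.28 points (two-sided exact permutation p = 0.543).

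Gria3 made up 14.4% ± 1.89 in hippocampal and 25.5% ± 0.515 in cortical excitatory nuclei, and Gria4 1.91% ± 1.59 in hippocampal and 6.92% ± 0.835 in cortical ones. In each of Gria1, Gria3 and Gria4 the units of the regions did not overlap. The exact permutation p was 0.0286 for each, the smallest that 4 against 4 units can give, and 0.0429 after Benjamini-Hochberg adjustment over 12 shares.

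The same 3 genes separated the regions over all nuclei, while Gria2 held 57.1% ± 0.622 in hippocampus and 57.7% ± 0.649 in cortex (exact permutation p = 0.229). In inhibitory nuclei Gria1 held 28.1% ± 3.17 in hippocampus and 15.5% ± 1.19 in cortex, and Gria3 14.7% ± 0.718 in hippocampus and 21.1% ± 0.731 in cortex, both without overlap (exact permutation p = 0.0286 each). Gria2 in this class spread over 37.8% to 52.2% in hippocampal units and 51.2% to 55.3% in cortical units, which overlap (-7.81 points, exact permutation p = 0.114). Without hippocampal unit 0 the regions separated, at -10.3 points (exact permutation p = 0.0571, the smallest that 3 against 4 units can give). They also separated with doublets removed and under per-nucleus scaling (exact permutation p = 0.0286 each). Gria4 also overlapped, with 12.3% ± 2.87 in hippocampus and 10.8% ± 1.18 in cortex. In all, 8 of 12 shares separated the units of the 2 regions. In level, 21.4% of the genes tested in all nuclei, 20.1% of the genes tested in excitatory nuclei and 5.40% in inhibitory nuclei had units that did not overlap.

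Auxiliary transcripts were also set against the pore transcripts, as UMIs per 100 Gria UMIs. In excitatory nuclei Shisa6 had 0.798 ± 0.205 in hippocampus and 0.0333 ± 0.00718 in cortex, and Cacng8 had 0.345 ± 0.062 in hippocampus and 0.144 ± 0.0335 in cortex (SD, n = 4 each). Cacng2 had 0.945 ± 0.34 in hippocampus and 1.92 ± 0.248 in cortex, and Cacng3 had 1.40 ± 0.693 in hippocampus and 3.06 ± 0.538 in cortex. Units of the regions did not overlap for any of the 4 ratios (exact permutation p = 0.0286 each). Cacng2 and Cacng3 did overlap in CPM, so their separation here also rests on the Gria UMIs. Of these, Gria1 and Gria2 were higher in hippocampus and Gria3 and Gria4 lower. In inhibitory nuclei only Shisa6 separated, with 0.98 ± 0.494 in hippocampus and 0.339 ± 0.201 in cortex. Such ratios were not formed for other genes. In level, units did not overlap for 20.1% of genes tested in excitatory and 5.40% in inhibitory nuclei.

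Subtypes within the classes were named from markers at a finer clustering, and their values are a description of pooled libraries without a test. Gria1 was 1936 CPM in dentate granule-like, 2422 CPM in CA1 pyramidal-like and 2036 CPM in CA3 pyramidal-like nuclei of hippocampus, against 527, 513 and 451 CPM in layer 2-4-, layer 5- and layer 6-like nuclei of cortex. Over units the hippocampal subtypes ran from 1753 to 2924 CPM and the cortical ones from 363 to 610 CPM. Within hippocampus, CA1-like units (2214 to 2924 CPM) lay above dentate granule-like units (1753 to 2087 CPM), and CA3-like units (1827 to 2208 CPM) overlapped the dentate granule-like ones. The Gria1 share was 28.3% to 31.5% over the 3 hippocampal subtypes and 8.12% to 10.3% over the 3 cortical ones.

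Gria4 was 59.8 CPM in dentate granule-, 52.0 in CA1- and 70.8 in CA3-like nuclei of hippocampus, against 326, 173 and 230 CPM in layer 2-4-, 5- and 6-like nuclei of cortex. The cortical layer 2-4-like nuclei found in hippocampal libraries lay nearer to cortex than to the hippocampal subtypes. Their Gria1 share was 12.7% (95% exact binomial interval 11.2 to 14.2) and their Gria4 share 7.1% (6.01 to 8.31). The same subtype of cortex had 10.3% of Gria1 and 6.38% of Gria4. Hippocampal unit 0 held at least 116 of the 140 such nuclei in hippocampal libraries. Layer 6-like nuclei of hippocampal libraries also lay near cortex, with 10.5% of Gria1 against 8.12%. Layer 5-like ones (84 nuclei) lay between cortex and the hippocampal subtypes, with 18.3% of Gria1 (16.3 to 20.5) against 8.63% in the same subtype of cortex. Binomial and Poisson intervals cover counting error only. Gria3 was 792, 1085 and 877 CPM in dentate granule-, CA1- and CA3-like nuclei, against 1500, 1562 and 1272 CPM in the layer 2-4-, 5- and 6-like nuclei.

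Auxiliary genes also varied among subtypes of 1 region. Shisa6 was 34.0 CPM in dentate granule-like nuclei (50 UMIs, 95% exact Poisson interval 25.2 to 44.8), lower than the 98.5 CPM in CA1-like (77.1 to 124) and 98.7 CPM in CA3-like nuclei (74.0 to 129). In cortical layer 5-like nuclei it had 0 UMIs, which allows up to 5.46 CPM. Cacng3 was 238 CPM in cortical layer 2-4-like nuclei, with 188 to 269 CPM over units, above layer 5-like (82.1 to 105 CPM) and layer 6-like units (48.0 to 126 CPM). Cacng2 in cortex was highest in layer 6-like units among the excitatory subtypes (132 to 176 CPM), above the layer 2-4-like (60.5 to 96.1 CPM) and layer 5-like units (26.2 to 95.7 CPM).

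**Figure D3:**
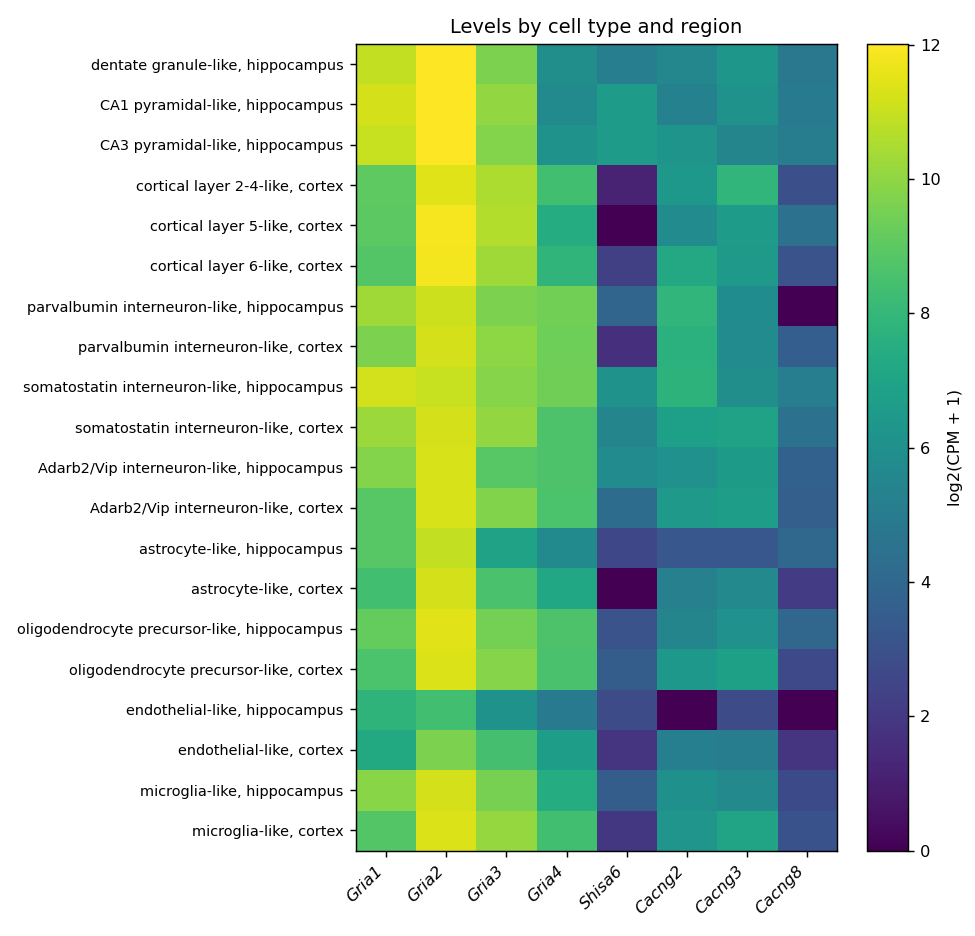
Level as log2(CPM + 1) of each gene (columns) in marker-named types by region (rows), with the libraries of a region pooled. Gria1 and Shisa6 are high in the hippocampal excitatory types at the top, Gria4 is low there, and Cacng2 and Gria4 are high in parvalbumin interneuron-like nuclei of both regions.

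Inhibitory and excitatory neurons of the same libraries were then set against each other in 1 model with the unit as a block. In hippocampus Gria4 and Cacng2 were higher in inhibitory nuclei and Gria1, Gria2 and Gria3 lower, so that 5 of 8 genes passed against 15.7% of 9779 genes (7.15% higher, 8.57% lower). In cortex Gria1, Gria4, Shisa6 and Cacng2 were higher and Gria2, Gria3 and Cacng3 lower, 7 of 8 against 17% (7.62% higher, 9.41% lower). Gria2 and Gria3 were lower in inhibitory nuclei in all 4 units of both regions.

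Gria4 averaged 608 ± 158 CPM in inhibitory and 121 ± 91.7 CPM in excitatory nuclei of hippocampus (SD, n = 4 each; log2 fold change 2.14 ± 0.17, edgeR adjusted p = 5.1e-25). In cortex it averaged 499 ± 65.2 CPM in inhibitory and 351 ± 34.3 CPM in excitatory nuclei (0.42 ± 0.12, edgeR adjusted p = 0.00397). All 4 units of each region had the higher value in inhibitory nuclei. The difference between regions passed, at 1.72 ± 0.20 (edgeR adjusted p = 2.63e-12). Without hippocampal unit 0 the hippocampal value was 3.02 and the difference 2.57, and without cortical unit 3 the cortical call was lost (0.38, adjusted p = 0.0676). DESeq2 called neither the cortical value (0.43, adjusted p = 0.695) nor the difference (2.07, adjusted p = 0.053).

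Gria1 turned direction between regions. It averaged 1389 ± 230 CPM in inhibitory and 1742 ± 317 CPM in excitatory nuclei of hippocampus (-0.36 ± 0.09, edgeR adjusted p = 0.00104), against 719 ± 73.8 CPM in inhibitory and 509 ± 33.7 CPM in excitatory nuclei of cortex (0.44 ± 0.09, edgeR adjusted p = 2.14e-05). The inhibitory value was the lower one in all 4 hippocampal units and the higher one in all 4 cortical units. The difference was -0.80 ± 0.13 (edgeR adjusted p = 2.71e-07).

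Gria2 was lower in inhibitory nuclei by more in hippocampus (-0.82 ± 0.08) than in cortex (-0.34 ± 0.07), a difference of -0.48 ± 0.11 (edgeR adjusted p = 0.000904). Gria3 was lower by -0.46 ± 0.11 in hippocampus and -0.48 ± 0.08 in cortex, and its difference did not pass. Of all genes 3.18% passed the test of the difference (1.29% higher, 1.89% lower), and 4 of the 8 did: Gria1, Gria2, Gria4 and Shisa6.

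Shisa6 in cortex averaged 15.8 ± 9.42 CPM in inhibitory and 1.69 ± 0.356 CPM in excitatory nuclei (3.09 ± 0.57, edgeR adjusted p = 3.26e-06), on 19 and 12 UMIs. In hippocampus it averaged 47.3 ± 20.8 CPM in inhibitory and 52.9 ± 15.5 CPM in excitatory nuclei and did not pass (-0.21 ± 0.39, edgeR adjusted p = 0.796), but it did at resolution 1.0 (-1.15, adjusted p = 0.00535). The difference between regions was -3.30 ± 0.66 (edgeR adjusted p = 0.00019).

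Cacng2 averaged 168 ± 45.3 CPM in inhibitory and 61.2 ± 17.8 CPM in excitatory nuclei of hippocampus (1.27 ± 0.24, edgeR adjusted p = 5.6e-06). In cortex it averaged 140 ± 19.8 CPM in inhibitory and 97.3 ± 11.4 CPM in excitatory nuclei (0.46 ± 0.16, edgeR adjusted p = 0.0306), a call that was lost without cortical unit 0 (0.40) or 1 (0.37), with no filter on low counts (0.40, adjusted p = 0.137), with numbers 1 to 3 alone (0.41, adjusted p = 0.18) and in DESeq2 (0.46, adjusted p = 0.236). The difference between regions did not pass (0.81 ± 0.28, adjusted p = 0.0832) but did without hippocampal unit 0 (1.18, adjusted p = 0.00679) and with numbers 1 to 3 alone (1.29, adjusted p = 0.00634). Cacng3 was lower in cortical inhibitory nuclei, with 81.3 ± 18.3 CPM against 155 ± 23.4 CPM in excitatory ones (-1.01 ± 0.17, edgeR adjusted p = 3.43e-07). In hippocampus it did not pass (-0.72 ± 0.29, adjusted p = 0.0797), and did without hippocampal unit 2 (-0.99, adjusted p = 0.0271) and with doublets removed (-0.84, adjusted p = 0.0466). At resolution 1.0, with the larger hippocampal inhibitory class, Cacng3 also passed (-0.88, adjusted p = 0.000817). Cacng8 passed in neither region.

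**Figure D4:**
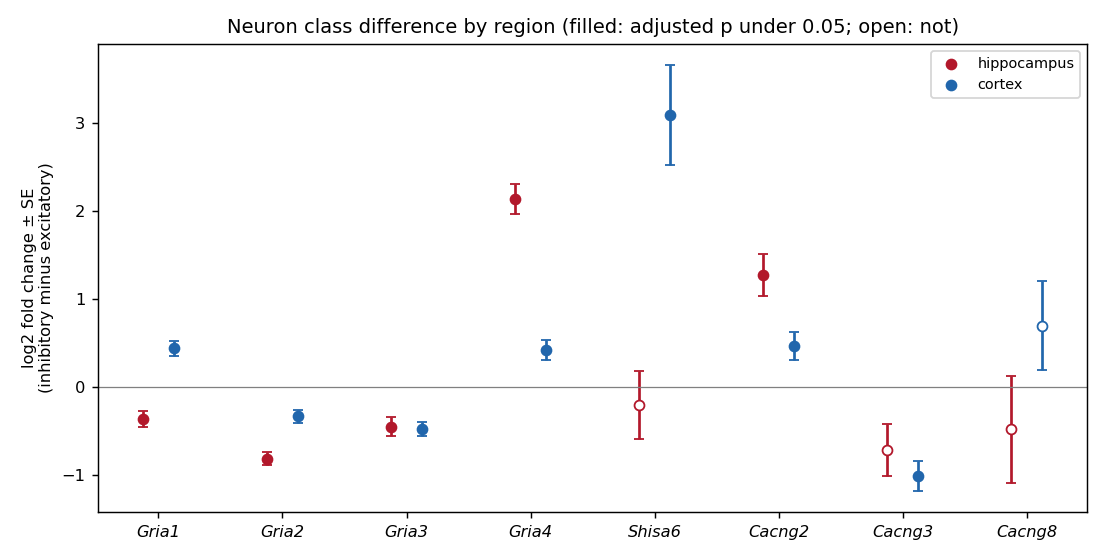
Log2 fold change, inhibitory minus excitatory neuron-like nuclei, with its standard error, in hippocampus (red) and cortex (blue). Filled points passed an adjusted p of 0.05 in edgeR. Gria1 lies below 0 in hippocampus and above it in cortex, and Gria4 is at 2.14 in hippocampus and 0.42 in cortex.

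Among interneuron subtypes, pooled over libraries and without a test, parvalbumin interneuron-like nuclei held 701 CPM of Gria4 in hippocampus and 648 CPM in cortex. Adarb2/Vip interneuron-like nuclei held 404 CPM in hippocampus and 392 CPM in cortex. Cacng2 was likewise higher in the parvalbumin type, at 236 CPM in hippocampus and 204 CPM in cortex, than in the Adarb2/Vip type, at 67.4 CPM in hippocampus and 90.6 CPM in cortex. The somatostatin type was near the parvalbumin type in hippocampus, at 684 CPM of Gria4 and 214 CPM of Cacng2. In cortex it was nearer to the Adarb2/Vip type, at 403 CPM of Gria4 and 108 CPM of Cacng2. Somatostatin interneuron-like nuclei stood out in Gria1, with 2326 CPM in hippocampus (63 nuclei) and 1165 CPM in cortex (132 nuclei). Their Gria1 share was 39.1% of 695 Gria UMIs in hippocampus (95% exact binomial interval 35.5 to 42.9) and 22.9% of 1173 in cortex (20.6 to 25.4). Their Gria2 share was 34.2% in hippocampus (30.7 to 37.9) and 47.9% in cortex (45.02 to 50.8). Of the Shisa6 UMIs in cortical interneuron subtypes, 10 were in the somatostatin type (43.3 CPM), 8 in the Adarb2/Vip type (18.1 CPM) and 1 in the parvalbumin type.

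**Figure D5:**
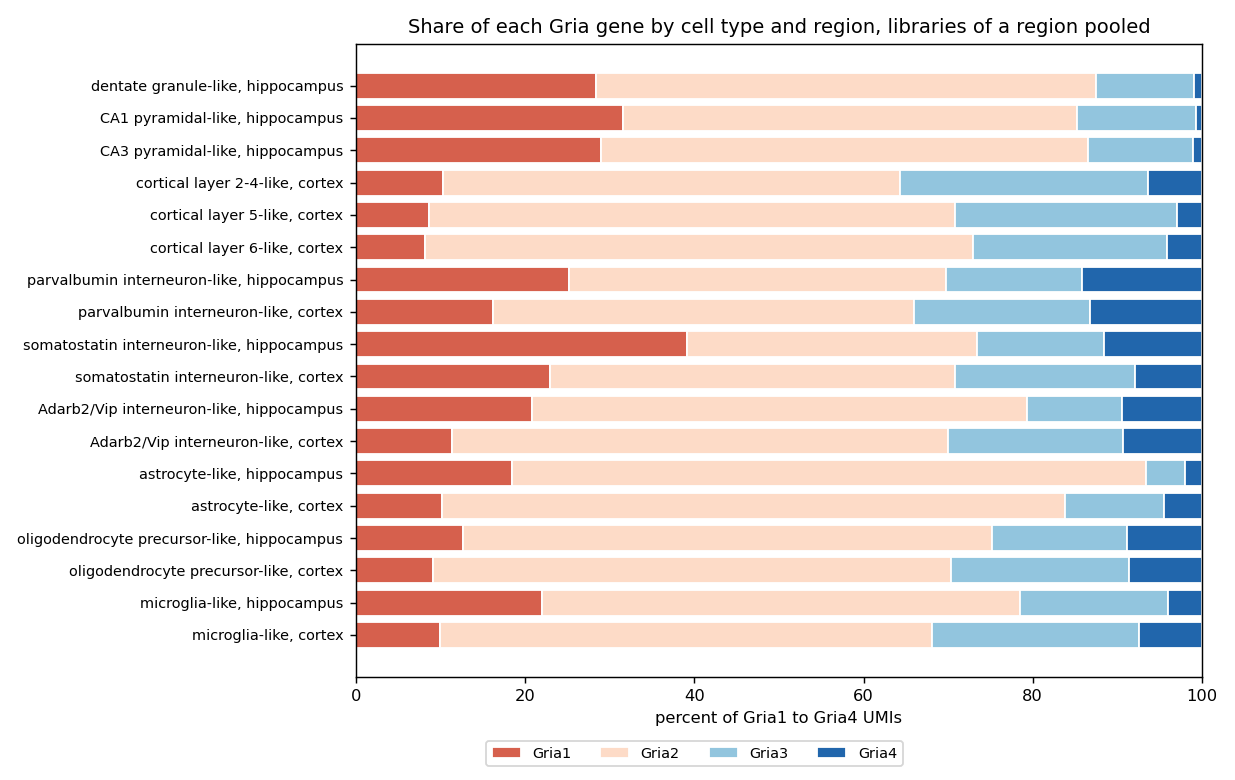
Share of each Gria gene, in percent of the summed Gria1 to Gria4 UMIs, by marker-named type and region with libraries pooled. Gria1 makes up 28.3% to 31.5% in hippocampal excitatory types and 8.12% to 10.3% in cortical ones, and 39.1% in hippocampal somatostatin interneuron-like nuclei.

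Free RNA in droplets can add neuronal UMIs to the nuclei of glia and vessel cells. Microglia-like nuclei, a type not known for AMPA receptors, had a Gria makeup near that of all nuclei of their region. Their Gria1 share was 21.95% in hippocampus (95% exact binomial interval 19.1 to 25.01) and 9.88% in cortex (8.85 to 10.98), against 23.4% and 10.5% over all nuclei of hippocampus and cortex. Their Gria2 level was 2413 CPM in hippocampus and 2628 CPM in cortex. The microglia-like cluster also had a mean marker score of 0.81 for excitatory neurons. The source of its Gria UMIs was not tested, and such a level in a glial or vessel type is not read as expression by that type. Pooled Gria2 in inhibitory nuclei, at 2274 CPM in hippocampus and 2442 CPM in cortex, was no higher than in microglia-like nuclei. Gria3 was likewise no higher, at 720 CPM in hippocampal and 970 CPM in cortical inhibitory nuclei, against 741 and 1104 CPM in microglia-like ones. Gria1 was higher in inhibitory nuclei, at 1353 and 731 CPM against 936 and 446 CPM, and in both types hippocampus was higher. How much of these inhibitory levels and shares came from other nuclei was not tested. Endothelial-like nuclei were far lower, at 327 CPM of Gria2 in hippocampus and 808 CPM in cortex.

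Nuclei named astrocyte-like had Gria2 at 75.0% of Gria UMIs in hippocampus (72.7 to 77.1) and 73.6% in cortex (70.7 to 76.3). An unnamed cluster led by Slc7a10 and Cyp4f15, with astrocyte as its second class, lay outside them. It held 110 hippocampal and 269 cortical nuclei, beside 575 and 152 in the named class. Its Gria2 share was 61.0% in hippocampus and 63.1% in cortex, and its Gria3 level 613 and 998 CPM. The named class is thus a differing part of such nuclei in each region. Gria3 was 156, 65.4, 51.2 and 164 CPM in hippocampal astrocyte-like nuclei, against 359, 343 and 436 CPM in cortical units 0, 1 and 3. Cortical unit 2, with 19 such nuclei, was left out by the minimum of 20. The groups did not overlap, and Gria3 was the 1 gene of the 3 tested that passed (-1.68 ± 0.32, edgeR adjusted p = 0.000471), against 4.7% of 2403 genes (2.33% higher, 2.37% lower). Units did not overlap for 16.2% of these genes. Gria1 (0.40 ± 0.30) and Gria2 (-0.31 ± 0.24) did not pass, although Gria1 did at resolution 1.0 (0.80, adjusted p = 0.000849). The class then held 135 to 224 nuclei in hippocampal units and 90 to 150 in cortical units. Whether the unnamed cluster joined it there was not tested. Summed excitatory markers moved with this result, at 567 to 903 CPM in hippocampal and 914 to 1100 CPM in cortical astrocyte-like units, with 2 of 8 markers higher in hippocampus and none at 0, and their part was not tested.

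In endothelial-like nuclei Gria2 (-1.30 ± 0.29, edgeR adjusted p = 0.0109) and Gria3 (-2.32 ± 0.39, adjusted p = 0.00363) were lower in hippocampus, 2 of 3 genes tested against 3.6% of 2970 genes (1.25% higher, 2.36% lower). Gria2 was 392, 161, 129 and 343 CPM in hippocampal units, against 1027, 488, 566 and 592 CPM in cortical units. Gria3 had 30, 0, 1 and 6 UMIs in hippocampal units, against 173, 21, 56 and 25 UMIs in cortical units. At such counts Gria3 passed the low-count filter through the cortical units, where it was high. The count of genes passed is therefore not evidence about Gria3. Neither gene overlapped between regions, as was so for 9.09% of genes. The Gria2 call was lost with doublets removed (-1.25, adjusted p = 0.213) and at resolution 1.0 (-1.08, adjusted p = 0.0519). Gria1 did not pass (0.56 ± 0.29). Excitatory markers, 233 to 517 CPM in hippocampal and 511 to 982 CPM in cortical endothelial-like units with 1 of 8 higher in hippocampus and none at 0, moved the same way, and their part was not tested. Without hippocampal unit 0 the Gria3 value was -3.49. Oligodendrocyte precursor-like nuclei held 403 CPM of Gria4 in hippocampus and 374 CPM in cortex, on 55 and 71 UMIs. The Gria4 shares were 8.9% (6.77 to 11.4) and 8.56% (6.75 to 10.7), beside 4.46% and 7.46% over all nuclei. That cluster had a mean marker score of 0.81 for excitatory neurons, like the microglia-like one. The source of its Gria UMIs was not tested.

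Of 35 other listed AMPA receptor genes, 34 were in the table and 31 were tested in excitatory nuclei, where 8 were higher in hippocampus and 4 lower, beside 8.68% higher and 7.62% lower over all genes. The median log2 fold change of the list was 0.09, beside -0.01 over all 10964 genes. Among other auxiliary subunits Cnih2, a cornichon that promotes export and slows the channel, was higher (1.53 ± 0.19, edgeR adjusted p = 9.63e-05), as were Prrt1 (SynDIG4; 1.01 ± 0.15) and Shisa9 (CKAMP44; 0.96 ± 0.16). Gsg1l, which suppresses channel currents, was lower (-0.76 ± 0.18). Of the scaffold and trafficking genes, Nsf, whose ATPase binds GluA2, was higher (0.47 ± 0.09), and Dlg1 (SAP97; -0.78 ± 0.17), the kinase anchor gene Akap5 (-0.65 ± 0.15) and Grip2 (-1.44 ± 0.46) were lower. These 8 named genes had an edgeR adjusted p between 9.63e-05 and 0.0464.

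Over all nuclei 4 of 33 tested were higher, Cnih2 (1.14), Prrt1 (0.74), Shisa9 (0.57) and Cacng5 (1.33), and 6 were lower, led by Akap5 (-0.84), Dlg1 (-0.85), Gsg1l (-0.89) and the pentraxin receptor gene Nptxr (-0.39). Over all genes 9.19% were higher, so the count of higher genes was near that share, and 8.53% were lower. In inhibitory nuclei none of 23 tested passed in edgeR. In endothelial-like nuclei 3 of 5 tested were lower, Olfm1 (-1.12), Nptxr (-1.69) and Frrs1l (-1.37), beside 2.36% lower over all genes, and in astrocyte-like nuclei none of 6 passed.

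Between neuron classes, 3 of 30 listed genes were higher in inhibitory nuclei of hippocampus and 10 lower, and in cortex 4 were higher and 10 lower. Over all genes 7.15% were higher and 8.57% lower in hippocampus, and 7.62% higher and 9.41% lower in cortex, so the counts of lower genes stood further from these shares than those of higher genes. Grip1 and Grip2, scaffold genes whose products bind GluA2 and GluA3, were higher in inhibitory nuclei of hippocampus (2.48 ± 0.22 and 2.403 ± 0.46) and of cortex (1.78 ± 0.17 and 1.33 ± 0.24). Cacng4 was higher in hippocampus (2.43 ± 0.60), and Epb41l1 (0.58 ± 0.13) and Cacng7 (0.82 ± 0.25) in cortex. Lower ones in hippocampus included Nrn1 (-2.72), Nptx1 (-1.75), Prrt1 (-1.59) and Olfm1 (-1.33), and in cortex Nrn1 (-1.24), Nptxr (-0.84), Frrs1l (-0.71) and Olfm1 (-0.61). The class difference itself differed between regions for 4 of 30 listed genes, Nrn1 (-1.48), Prrt1 (-1.05), Nsf (-0.86) and Olfm1 (-0.72), each lower in hippocampus. Over all genes 1.29% were higher and 1.89% lower in this test.

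Across 35 type-by-region groups, which share libraries, the gene whose level followed each AMPA receptor gene most closely was Nsun7 for Gria1 (Pearson r of log2(CPM + 1) = 0.80), Nrcam for Gria2 (0.924), Grin1 for Gria3 (0.932) and Cit for Gria4 (0.878). For the auxiliary genes it was Gng2 for Shisa6 (0.67), Csrnp3 for Cacng2 (0.863), Fcho1 for Cacng3 (0.907) and Ppt1 for Cacng8 (0.701). The next closest were Epha5 and Dgkg for Gria1, Map2 and Tnik for Gria2, Dnm1 and Atp2b2 for Gria3, and Cntn4 and Dpp10 for Gria4. They were Cnih2 and Slc24a3 for Shisa6, Srrm3 and Mast1 for Cacng2, Slc35f4 and Kcnq5 for Cacng3, and Numbl and Ercc6 for Cacng8. Only genes with a mean of at least 20 CPM over the groups were searched, and predicted (Gm, Rik) names were left out. These values describe the groups and carry no test.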

How the data were processed

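Values in the deposited table are unnormalized UMI counts, one column a nucleus, as its whole numbers and unequal totals show. STAR 2.4.0a24, Seurat and mm10 are named in the submitters' processing notes. The sources used here do not say how UMIs were collapsed, whether introns were counted or how nuclei were chosen. Of 13313 columns, 1689 match no sample label and were not used, which left 11624 nuclei. No further filter on nuclei was set.

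Clustering used leidenalg 0.10.2 within scanpy 1.11.5 (2000 variable genes without the AMPA receptor genes, 40 components, 20 neighbours, resolution 2.0, subtypes at 4.0). A class needed a mean marker score of 0.6, a margin of 0.15 and 3 supporting markers. The study's own cell names may differ from these. Doublet scoring against simulated pairs called 4.98% of nuclei, which were removed in an alternative only.

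Counts were summed per unit and class (at least 20 nuclei) and tested over all genes with edgeR 4.0.16 (TMM, filterByExpr, quasi-likelihood, Benjamini-Hochberg) in R 4.3.3. Printed CPM scales to all UMIs of the unit's class, and fold changes use TMM. Shares were tested by two-sided exact permutation over 70 assignments. In simulated counts of excitatory nuclei, over 10796 genes, the fit called 67.7% of genes given a log2 change of 1 and 100% of genes given one of 2, with 2.91% of calls false. In inhibitory nuclei, over 4452 genes, it recovered 50.0% and 97.9%, with 2.72% of calls false. In all nuclei, over 12684 genes, it recovered 80.8% and 100%, with 8.16% of calls false. All 8 AMPA receptor genes are named in every comparison, with up to 4 other listed genes per direction by smallest p and the 3 closest genes by correlation. Genes and lists were chosen with earlier results of these data known. Alternatives were DESeq2 1.42.0, no filter on low counts, each unit left out, title numbers 1 to 3, number 0 as a term, a replicate block, a common floor of 646 UMIs, doublets removed, other resolutions and per-nucleus scaling.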

Additional observations from a re-analysis of the deposited data

Results flagged for a closer look

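In 18 of 96 groups of 4 units, 1 unit lay apart by Dixon's rule, which by chance flags about 1 in 20 groups, and 10 of the 18 were hippocampal unit 0. Over all nuclei that unit had 2504 CPM of Gria2 (2872 to 2944 in the other hippocampal units), 262 CPM and a 6.03% share of Gria4 (169 to 180 CPM), 93.1 CPM and 2.14 per 100 Gria UMIs of Cacng3 (49.6 to 52.9 CPM), and 1.97 per 100 Gria UMIs of Cacng2. In excitatory nuclei it had 1273 CPM and a 21.2% share of Gria1, and 146 CPM and 2.43 per 100 Gria UMIs of Cacng3. Its 116 cortical layer 2-4-like nuclei move with these values, and their part was not tested.

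Cacng8 was 17.3 CPM in hippocampal unit 2 over all nuclei, against 16.2 to 16.3 CPM in the others. Cortical unit 0 stood apart in excitatory nuclei, with 402 CPM and an 8.17% share of Gria4 and a 24.7% share of Gria3. Shisa6 in inhibitory nuclei of hippocampal unit 1 was 78.2 CPM and 1.72 per 100 Gria UMIs, on 5 UMIs. Gria4 in inhibitory nuclei of cortical unit 2 was 402 CPM, with a share of 9.01%.

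The inhibitory minus excitatory difference differed between hippocampus and cortex, by the interaction term in edgeR, for Gria1 (-0.80), Gria2 (-0.48), Gria4 (1.72) and Shisa6 (-3.30).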

How the results depend on the processing

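Counts of genes that passed ran over 6 to 8 of 8 in all nuclei and stayed at 1 in inhibitory nuclei over every alternative run, but at resolution 1.0 that gene was Gria3 (-0.56) and not Gria1 (0.23). The hippocampal inhibitory class held more nuclei at that resolution. In excitatory nuclei 4 passed without dentate granule-like nuclei, where Gria3, Gria4, Cacng2 and Cacng3 lost their calls, and 6 to 8 with each unit left out. All 8 passed with only dentate granule-, CA1- and CA3-like nuclei of hippocampus kept. In astrocyte-like nuclei 5 passed at resolution 1.0 and 2 at 4.0, and 1 to 2 with each unit left out (2 without cortical unit 3). In endothelial-like nuclei, where every alternative was added after the data were seen, 4 passed with no filter, 1 with doublets removed and 1 at resolution 1.0, where Gria2 was the gene lost both times. Directions turned for Cacng2 in inhibitory nuclei at resolution 1.0 (-0.018), for Gria1 in astrocyte-like nuclei with numbers 1 to 3 (-0.17) and for the regional difference of the Gria3 class contrast (0.03), which was -0.030 with no filter, -0.051 with doublets removed, -0.15 at resolution 1.0, -0.055 at 4.0 and -0.083 to 0.041 with each unit left out. None of these reversed values passed the test. DESeq2 did not call the regional difference of the Gria4 class contrast (2.07, adjusted p = 0.053), nor Gria4 (0.43) and Cacng2 (0.46) between classes in cortex, nor Cacng2 in all nuclei (-0.35, adjusted p = 0.0786). The causes were not tested. Same-numbered units of the 2 regions correlated at 0.428, 0.097, 0.017 and 0.029 for numbers 0 to 3, and only number 0 matched its own number best. These values cannot show whether units of the same number come from 1 mouse. With the number as a replicate block 7 genes passed in all, 8 in excitatory, 1 in inhibitory, 1 in astrocyte-like and 3 in endothelial-like nuclei. Over number pairs, 8 Gria shares and 9 auxiliary ratios had a difference of 1 sign in all 4 pairs. That rule is looser than no overlap between units, so these counts are not comparable with those above. Sign flips over 4 pairs cannot give a p below 0.125. With a unit left out, 4 against 3 units cannot give a share a p below 0.0571, so those shares were judged by overlap. Low UMI counts limit Shisa6 and Cacng8 outside hippocampal excitatory nuclei and every gene in hippocampal inhibitory nuclei.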
